A study of Mus musculus with 9 samples.

Results

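Mammary lineage factors are 10 genes that mark or set the cell lineages of the mammary gland, and their levels were described here in each of 9 mammary tumours of mice. They were chosen by symbol, as a fixed list of Gata3, Foxa1, Ehf, Elf3, Elf5, Kit, Sox10, Sox9, Trp63 and Klf4, and all 10 were found among the 18484 genes in the files. Of these, 9 encode transcription factors and Kit encodes a receptor tyrosine kinase. All tumours arose in BlgCre-NeuKI mice, heterozygous for both alleles on a mixed FVB and C57Bl6 background, in which an activated rat Neu allele sits in the endogenous Erbb2 locus behind a floxed stop cassette and the Beta-lactoglobulin promoter drives Cre mainly in luminal ER- cells. RNA from snap-frozen whole tumours was sequenced after rRNA removal, with 1 library per tumour.

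The 5 tumours with high amplification of the Erbb2/Neu locus were all adenocarcinomas of no special type, AC(NST). The virgin mice gave MS1163.1, MS1163.2 and MS1213.1, and mice that had been through at least 1 pregnancy (parous) gave MS1155.3 and MS1218.2. The 3 epithelial tumours with no or low amplification all came from parous mice: MS1210.1 and MS1349.1 were adenosquamous carcinomas (ASQC), tumours with glandular and squamous parts, and MS1166.1 was an AC(NST). The ninth tumour, MS1156.1, was a sarcoma of a parous mouse with no or low amplification. Every virgin tumour was high-amplified and every ASQC was not/low-amplified and parous, so amplification, parity and histotype cannot be told apart fully in these groups. The label of MS1163.2 has the same mouse number as that of MS1163.1, although the series text counts as many mice as tumours, and the study's assays of the locus gave different calls for MS1213.1 and MS1218.2. Ages and a normal gland were not analysed here.

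The mammary epithelium has an inner luminal and an outer basal layer. Luminal cells are split into hormone-sensing cells, where Foxa1 opens chromatin for the oestrogen receptor, and ER- progenitors, which carry Kit and Elf5 and give rise to the milk-producing alveoli. Gata3 is needed by the luminal lineage as a whole. Basal cells depend on Trp63, which encodes p63 and also sets stratified and squamous epithelium, while Sox10 and Sox9 are linked to stem and progenitor cells in the gland and to neural crest and cartilage, respectively, elsewhere. Ehf, Elf3 and Elf5 are ETS factors of epithelia, and Klf4 is a zinc-finger factor of the epidermal barrier.

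Libraries held from 12501225 to 23912429 reads on genes, and a level of 3 reads was taken as the limit of detection. Every member except Foxa1 was above it in each epithelial tumour, though Trp63 had only 11 reads in MS1166.1. Levels are given as normalized counts, that is reads divided by a size factor per tumour. Tumours could hold other cells, and in bulk RNA fewer cells of a type and less RNA per cell cannot be told apart. The summed level of 8 fibroblast markers was 381344 normalized counts in MS1218.2 against 29755.5 to 116031 in the other epithelial tumours, that of 6 leukocyte markers was 16977 against 1458 to 7647, and that of 6 endothelial markers was 14081 against 2403 to 6475. Luminal keratins and adhesion genes were present in every epithelial tumour, with a sum over 9 markers of 38849 to 152956 normalized counts. Per length, the 10 genes ranged from among the most abundant in a tumour (Ehf, at percentile 99.5 in MS1213.1) to unread (Foxa1 in MS1163.1).

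**Figure D1:**
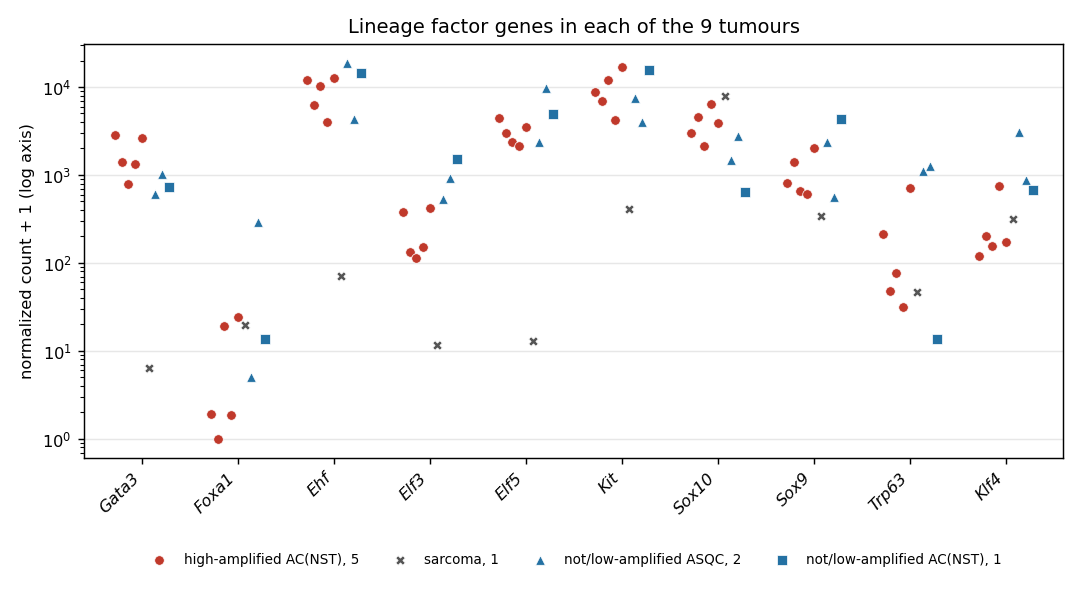
Normalized count + 1 (log axis, size factors over all 9 tumours) of the 10 lineage genes, with 1 point per tumour and the tumours of each gene side by side from high-amplified to not/low-amplified and the sarcoma. The sarcoma has the highest Sox10 of all, at 7820 normalized counts, and lies below every epithelial tumour for Gata3, Ehf, Elf3, Elf5, Kit and Sox9.

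Ehf, an ETS factor of glandular epithelium (chr2:103263433-103303278, minus strand, GRCm38), was high in every epithelial tumour. Among high-amplified tumours MS1155.3 had 13140.0 normalized counts, MS1213.1 12569.6, MS1163.2 10739, MS1163.1 6515 and MS1218.2 4263. Of the not/low-amplified ones, MS1210.1 had 19643, MS1166.1 15031 and MS1349.1 4499. The groups overlapped, and the spread from the lowest to the highest tumour was 4.61-fold. Per kilobase of exon Ehf ranked first among the 10 genes in 5 of the 8 epithelial tumours.

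Elf5, the ETS factor of alveolar progenitors (chr2:103411688-103450989, plus strand, the neighbour of Ehf), had 1 tumour above all others. The ASQC MS1349.1 held 10259 normalized counts. Next came the not/low-amplified AC(NST), MS1166.1, at 5092, and then 4584 in MS1213.1, 3648 in MS1155.3, 3160.5 in MS1163.1, 2461 in MS1210.1, 2451 in MS1163.2 and 2241 in MS1218.2. MS1349.1 was also the tumour with the most milk transcripts. Its sum over 8 milk genes was 1609650 normalized counts against 4413 to 129627 in the other epithelial tumours. The order of Elf5 was not the order of the milk sum elsewhere. MS1166.1 had the second highest Elf5 and the lowest milk sum, 4413. MS1218.2 had the lowest Elf5 and the second highest milk sum, 129627. A sum weights the abundant genes, so the log2 difference from the median tumour was also taken per gene. By its median over the 8 genes, MS1218.2 was again second highest, at 3.04. MS1166.1 was at -0.30, above MS1210.1 (-2.23), MS1163.2 (-2.34) and MS1163.1 (-2.35).

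Elf3, an ETS factor of simple and stratified epithelia (chr1:135253575-135258568, minus strand), was the only one of the 10 genes whose amplification groups did not overlap. The high-amplified tumours ran from 435 normalized counts in MS1155.3 and 396 in MS1213.1 to 161 in MS1218.2, 139 in MS1163.1 and 118 in MS1163.2. The not/low-amplified tumours began above these, at 554 in MS1210.1, followed by MS1349.1 at 953 and MS1166.1 at 1580. Every high-amplified tumour was thus lower, and the group means were 250 ± 149 (SD, n = 5) and 1029 ± 517 (SD, n = 3). Every high-amplified tumour was lower than every not/low-amplified tumour in 8.04% of the 14007 genes tested. The summed level of 9 luminal epithelial markers was likewise lower in every high-amplified tumour. It was 38849 to 61708 normalized counts in the high-amplified and 93696 to 152956 in the not/low-amplified tumours. Within the high-amplified tumours its order differed from that of Elf3. MS1213.1 had the lowest sum, 38849, with Elf3 at 396, and MS1218.2 the highest, 61708, with Elf3 at 161. The part of this sum in the Elf3 difference was not tested. Elf3 overlaps the antisense gene Gm26642, and whether the counting used strand is not given in the sources used here.

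Gata3, the zinc-finger factor that maintains luminal cells (chr2:9857078-9890034, minus strand), went the other way. The high-amplified MS1213.1 had 2947 normalized counts, MS1155.3 2730, MS1163.1 1468, MS1218.2 1414 and MS1163.2 826. The not/low-amplified MS1349.1 had 1077, MS1166.1 758 and MS1210.1 632. The 2 highest tumours were both high-amplified and the 2 lowest were both not/low-amplified, but MS1163.2 lay below MS1349.1, so the groups overlapped. Gata3 shares its interval with Gm13256, 4930412O13Rik and 9230102O04Rik.

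Foxa1, the pioneer factor of hormone-sensing cells (chr12:57540628-57546916, minus strand), was nearly silent in all but 1 tumour. Its normalized count was 302 in the ASQC MS1349.1. Far below came MS1155.3 at 24.5, MS1163.2 at 18.6, MS1166.1 at 13.1, MS1210.1 at 4.22, MS1213.1 at 0.963, MS1218.2 at 0.926 and MS1163.1 at 0. The counts in MS1213.1, MS1163.1 and MS1218.2 are within the 3 reads taken as the limit of detection. The sum over 8 hormone-sensing markers did not single out MS1349.1. It was 6025 normalized counts there, within the 2767 to 7637 of the other epithelial tumours and below MS1163.2, MS1155.3, MS1163.1 and MS1213.1. Prlr, the prolactin receptor, weighs most in this sum, with a median of 3762 (size factors over 9 tumours) against 713 for Ly6a, the next gene. By the median over the 8 genes of the log2 difference from the median tumour, MS1349.1 was second highest, at 1.06. MS1155.3 was highest by that measure, at 1.31, and MS1163.1 lowest, at -1.27. Single genes of such cells, named after their values had been seen apart from Esr1, differed among themselves. Pgr, the progesterone receptor, was highest in MS1349.1 at 462 normalized counts against 1.19 to 109 elsewhere, and Tbx3, a T-box factor, was highest there at 2112 against 10.7 to 136. Esr1, the oestrogen receptor, was close in another tumour: it was 929 in MS1349.1 and 1005.4 in MS1213.1, where Foxa1 was at 0.963, and Cited1, a transcriptional coactivator of hormone-sensing cells, was 17.5 in MS1349.1 and highest in MS1218.2, at 67.6.

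Kit, the receptor tyrosine kinase of luminal progenitors (chr5:75574916-75656722, plus strand), was abundant throughout. In the high-amplified group it reached 17428 normalized counts in MS1155.3, with MS1163.2 at 12464, MS1213.1 at 9086, MS1163.1 at 7185 and MS1218.2 at 4464. In the not/low-amplified group it reached 16334 in MS1166.1, with MS1210.1 at 7841 and MS1349.1 at 4157. High and low tumours occurred in both amplification groups. The 4.19-fold range was the narrowest of the 9 genes read in every tumour. Kit is also the receptor of mast cells, and the sum of 8 mast cell markers was 41.5 to 505 normalized counts in the epithelial tumours. The mast cell sum was lowest, at 41.5, in MS1210.1, where Kit was 7841, and highest, at 505, in MS1163.2, where Kit was 12464. The part of mast cells in the level of Kit was not tested.

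Sox10, a SoxE factor of neural crest and of mammary progenitors (chr15:79154908-79165240, minus strand), was high in most epithelial tumours. MS1218.2 had the most, 6699 normalized counts, then MS1163.1 (4775), MS1155.3 (4029) and MS1213.1 (3097), with the fifth high-amplified tumour, MS1163.2, at 2208. The not/low-amplified MS1349.1 had 2852, MS1210.1 1552 and MS1166.1 666. The 4 highest tumours were high-amplified and the lowest was the not/low-amplified AC(NST), with MS1163.2 below MS1349.1. Per kilobase it was the most abundant of the 10 genes in MS1163.1 and MS1218.2. Schwann cells also carry Sox10. The sum of 5 Schwann cell markers was 3943 normalized counts in MS1218.2 against 1514 to 2234 in the other epithelial tumours. MS1166.1, with the least Sox10, had the second highest sum, 2234. MS1218.2 was also the tumour with the highest fibroblast sum. The part of Schwann cells in the level of Sox10 was not tested.

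Sox9, the SoxE factor that also drives cartilage genes (chr11:112782224-112787760, plus strand), had nearly the opposite extreme. MS1166.1 had 4490.4 normalized counts and MS1210.1 2452, whereas the last not/low-amplified tumour, MS1349.1, had 591, the least of all. Between them lay MS1155.3 (2076), MS1163.1 (1485), MS1213.1 (839.8), MS1163.2 (677) and MS1218.2 (645). MS1166.1 thus held the highest Sox9 and the lowest Sox10. Among the cartilage genes, named after their values had been seen, Col2a1 was 5118 normalized counts in MS1166.1 against 1.93 to 171 elsewhere. Col9a1 was 777 in MS1166.1 and highest in MS1163.1, at 9947, where Sox9 was 1485.

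Trp63, the p63 gene of basal and squamous cells (chr16:25683763-25892102, plus strand), had the widest range of the 9 genes read in every tumour, 101-fold. The ASQC tumours MS1349.1 and MS1210.1 had 1325 and 1142 normalized counts, and the AC(NST) MS1166.1 had 13.1. In the high-amplified AC(NST) tumours it ranged from 743 in MS1155.3 and 221 in MS1213.1 to 79.5 in MS1163.2, 49.3 in MS1163.1 and 32.4 in MS1218.2. Both ASQC tumours lay above every AC(NST), as was so for 5.3% of all genes tested, whereas the not/low-amplified AC(NST) was the lowest of all. The 101-fold range rests on the 11 reads in that tumour, as many as Foxa1 had there, and the next lowest tumour, MS1218.2, had 35 reads.

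Basal and squamous genes showed how far Trp63 stood for a basal profile, with genes named here after their values had been seen except Krt14, Acta2, Krt17, Krt6a and Tchh. Krt5, a basal keratin, reached 2602 normalized counts in MS1210.1, with MS1349.1 at 1670.2 and MS1155.3 at 1392, the 3 tumours with the most Trp63, and at most 154 in the other 5. In MS1166.1 the basal keratins parted: Krt14 was 6495 and Krt17 8476, whereas Krt5 was 11.9 and Trp63 13.1. Acta2, the smooth muscle actin of myoepithelium and of stromal cells, was 11087 in MS1218.2 against 479 to 1852 elsewhere, in the tumour with the second lowest Trp63 and the highest fibroblast and endothelial sums. The squamous keratin gene Krt6a and the hair gene Tchh were highest in both ASQC tumours. Krt6a was 14818 in MS1210.1 and 2496 in MS1349.1 against 0 to 419 in the AC(NST) tumours, and Tchh, which encodes trichohyalin of the hair sheath, was 3292 and 15830 against 1.05 to 57.2. MS1155.3 had Trp63 at 743 and Krt6a at 419 but Tchh at 5.15.

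**Figure D2:**
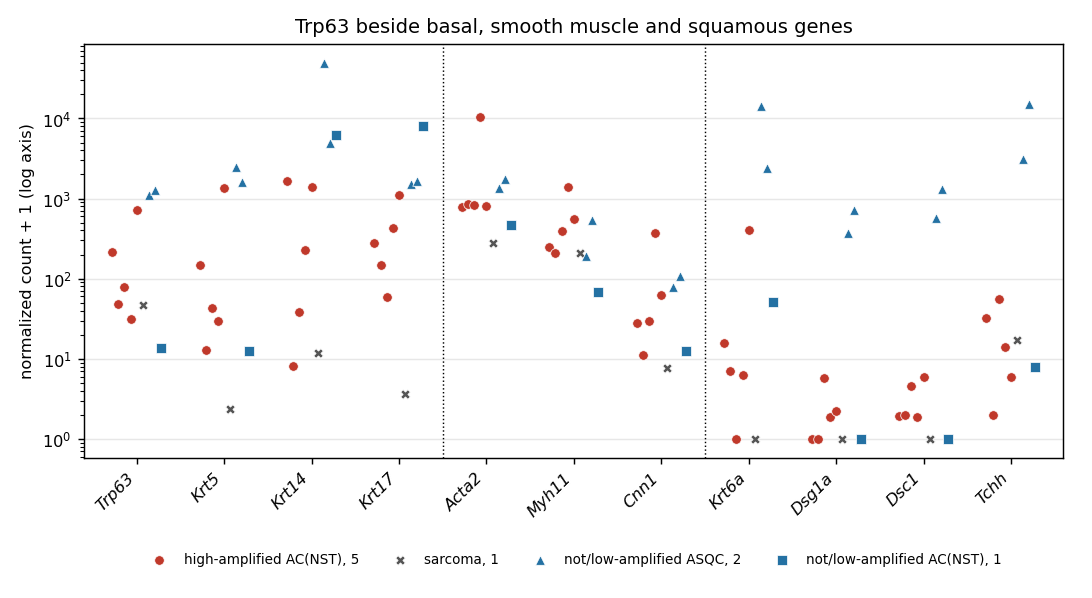
Normalized count + 1 (log axis, size factors over all 9 tumours) of Trp63, 3 basal keratins, 3 smooth muscle genes and 4 squamous or hair genes, with 1 point per tumour. The not/low-amplified AC(NST) has the lowest Trp63 beside high Krt14 and Krt17, and Tchh separates both ASQC tumours from all others.

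Klf4, the barrier factor (chr4:55527143-55532466, minus strand), was likewise highest in both ASQC tumours. It and Trp63 were the 2 of the 10 genes whose histotype groups did not overlap, beside the same 5.3% of all genes with every ASQC tumour higher. The ASQC tumours MS1210.1 and MS1349.1 had 3208 and 911 normalized counts, MS1218.2 had 780.4 and MS1166.1 707. The remaining tumours were MS1163.1 with 213, MS1155.3 with 180.3, MS1163.2 with 160.3 and MS1213.1 with 122. Of the high-amplified tumours only MS1218.2 reached the not/low-amplified range, lying above MS1166.1. The 3 virgin tumours and MS1155.3 were all between 122 and 213.

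The windows around the start sites of Elf3 and Klf4, which had the smallest adjusted p-values of the 10 genes in the amplification comparison, and of Gata3, which differed in the other direction, are shown to place these genes beside each other. RefSeq (GRCm38.p6) gave such windows, from 250 bases before to 50 after a start site, for 6 of the 10 genes. Each is printed 5′ to 3′ on the gene's strand, with GGAA, the core of ETS factor sites, and its reverse complement TTCC in capitals.
Elf3, chr1:135258423-135258722, minus strand: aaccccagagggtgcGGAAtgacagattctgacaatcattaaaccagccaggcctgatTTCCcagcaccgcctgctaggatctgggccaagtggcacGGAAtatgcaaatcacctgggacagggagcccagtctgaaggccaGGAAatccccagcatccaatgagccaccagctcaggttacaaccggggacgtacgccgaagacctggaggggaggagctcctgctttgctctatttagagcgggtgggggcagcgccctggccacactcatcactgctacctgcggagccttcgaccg
Klf4, chr4:55532426-55532725, minus strand: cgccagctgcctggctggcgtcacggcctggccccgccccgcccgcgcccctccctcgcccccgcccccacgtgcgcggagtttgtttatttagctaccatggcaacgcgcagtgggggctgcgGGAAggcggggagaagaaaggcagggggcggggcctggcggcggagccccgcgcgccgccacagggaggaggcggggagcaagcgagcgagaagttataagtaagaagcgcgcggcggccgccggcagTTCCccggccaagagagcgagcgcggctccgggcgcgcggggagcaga
Gata3, chr2:9878551-9878850, minus strand: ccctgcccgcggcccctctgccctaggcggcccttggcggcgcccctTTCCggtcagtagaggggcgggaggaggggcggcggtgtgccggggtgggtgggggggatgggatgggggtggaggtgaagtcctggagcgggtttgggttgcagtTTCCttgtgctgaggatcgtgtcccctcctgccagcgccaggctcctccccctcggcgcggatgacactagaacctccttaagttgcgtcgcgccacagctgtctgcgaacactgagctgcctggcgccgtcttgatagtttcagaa

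GGAA occurred 4 times in the Elf3 window, 2 times in the Klf4 window and 2 times in the Gata3 window, counting both strands. It was present in 96.0% of 32851 promoter windows of the same length, with a median of 3 matches, so its presence does not set these genes apart. The GATA letters AGATAA or TGATAA, present in 18.6% of windows on either strand, were in none of the windows of the 6 genes.

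Whether the amplification groups differed was tested with edgeR's quasi-likelihood test over 14007 genes, where a call needed an adjusted p-value (Benjamini-Hochberg) under 0.05 and a fold over 2. None of the 10 genes was called, against 0.921% of all genes, and 5 of 10 had an unadjusted p under 0.05, against 22.8% of all genes. Elf3 had the smallest adjusted p, 0.0824, with a log2 fold change of -2.01 (SE 0.52) in the high-amplified tumours. Klf4 followed at -2.45 (SE 0.70, adjusted p = 0.0964). DESeq2, the tool of the study's own comparison, was an alternative here and called both as lower. Elf3 was at -2.04 (adjusted p = 0.00636 by DESeq2) and Klf4 at -2.46 (adjusted p = 0.00932), where DESeq2 called 4.54% of all genes as lower. Over all alternatives the adjusted p ranged from 0.00636 to 0.550 for Elf3 and from 0.00932 to 0.509 for Klf4. Without MS1218.2, the tumour with the high fibroblast sum, edgeR also called Klf4, at -3.24 (adjusted p = 0.0189), among 1248 genes called in all. MS1218.2 was also the only sample that the study excepts from the tumour purity it reports. Its high amplification was scored by qPCR, and copy number from the study's exome sequencing did not show it. The part of each in the changed count of calls was not tested.

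Gata3 and Sox10 were fitted as higher in the high-amplified tumours, at 1.21 (SE 0.44, adjusted p = 0.152 by edgeR) and 1.31 (SE 0.52, adjusted p = 0.176), and neither passed. Foxa1 was fitted at -3.60 (SE 1.54, adjusted p = 0.201), a value that rests on MS1349.1: without this tumour it was 0.078. Trp63 was fitted at -1.87 (SE 1.22, adjusted p = 0.380), Sox9 at -1.10 (SE 0.59, adjusted p = 0.295) and Elf5 at -0.87 (SE 0.44, adjusted p = 0.271). Ehf, at -0.44 (SE 0.52, adjusted p = 0.636), and Kit, at 0.13 (SE 0.53, adjusted p = 0.900), had the smallest differences. Among AC(NST) tumours alone, where MS1166.1 is the single not/low-amplified tumour, the Trp63 difference turned to 4.05.

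The comparison of ASQC with AC(NST) likewise called none of the 10 genes, against 0.236% of all genes, with 3 of 10 at an unadjusted p under 0.05 against 8.72%. Klf4 was fitted as higher in the ASQC tumours, at 2.52 (SE 0.72, adjusted p = 0.302 by edgeR and 0.0592 by DESeq2), Trp63 at 2.70 (SE 1.11, adjusted p = 0.527 by edgeR) and Foxa1 at 4.01 (SE 1.44, adjusted p = 0.471). DESeq2 called none of the 10 either and gave no adjusted p for Trp63. Without MS1349.1 the Foxa1 value was -1.14. Kit and Gata3 were fitted as lower in the ASQC tumours, at -0.89 (SE 0.59) and -0.99 (SE 0.60), and Elf5 as higher, at 0.86 (SE 0.51), all with adjusted p-values above 0.66.

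The comparison of parous with virgin tumours called no gene of the 14007 by edgeR (0% of all genes) and 511 by DESeq2, with 2 of the 10 lineage genes and 14.2% of all genes at an unadjusted p under 0.05. These were Klf4, 2.80 higher in parous tumours (SE 0.82, adjusted p = 0.297), and Elf3, 1.73 higher (SE 0.72, adjusted p = 0.339). DESeq2 called Klf4 (adjusted p = 0.00927) where it called 2.82% of all genes as higher. Across the alternatives of this comparison, the adjusted p of Klf4 ranged from 0.00927 to 0.728. The 3 virgin tumours are all high-amplified, and within the high-amplified tumours alone the parity difference of Klf4 was 1.58 and that of Elf3 was 0.46, neither called.

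**Figure D3:**
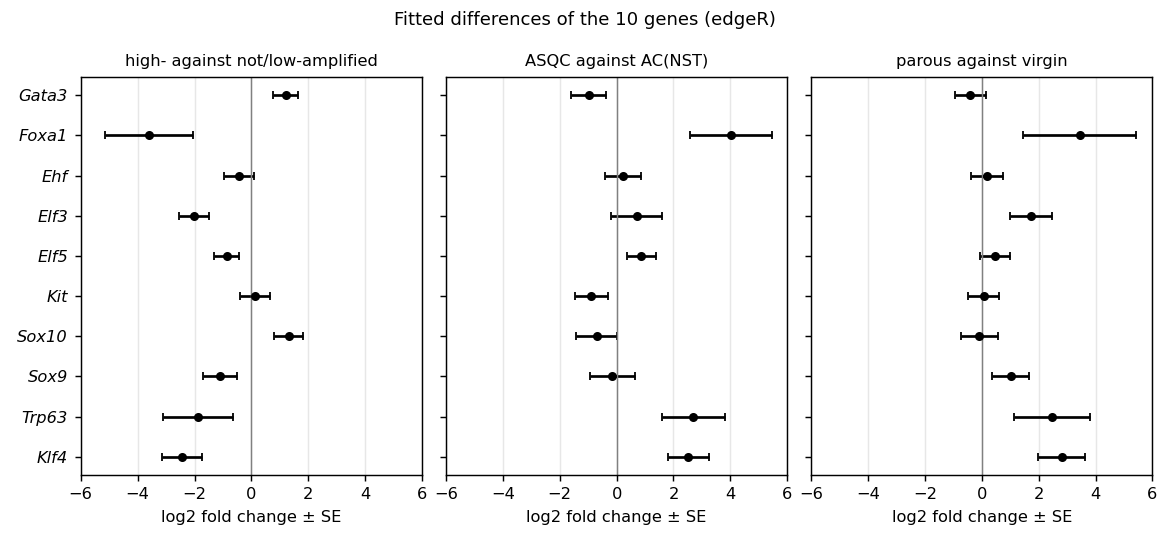
Fitted log2 fold change ± SE of the 10 genes by edgeR for amplification, histotype and parity (n = 5 against 3, 2 against 6 and 5 against 3 tumours). Klf4 and Elf3 lie left of 0 for high amplification and right of 0 for parity, and none of the differences passed the adjusted threshold.

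Other lineage factors and markers were read from fixed lists, in which most genes did not pass by edgeR either. Calls in these lists are by edgeR unless DESeq2 is named. In the amplification comparison, Bcl11b, a zinc-finger factor of basal stem cells and skin, was lower in the high-amplified tumours at -3.03 (SE 0.45, adjusted p = 0.0287 by edgeR), the only one called of 15 other basal and progenitor factors. It was 27.3 to 77.1 normalized counts in the high-amplified and 286 to 793 in the not/low-amplified tumours. Ovol1, an epithelial differentiation factor, was lower at -2.45 (SE 0.43, adjusted p = 0.0362), the only one called of 15 other luminal factors. Of 7 luminal progenitor markers 1 was called, Aldh1a3, a retinaldehyde dehydrogenase, at -2.95 (SE 0.43, adjusted p = 0.0283). Of 7 other alveolar factors and 6 mesenchymal factors none was called by edgeR. DESeq2 called 2 basal and progenitor factors as higher and 6 as lower, and 1 luminal factor as higher and 3 as lower. It also called 1 luminal progenitor marker in each direction, 1 mesenchymal factor as higher and no alveolar factor. Of all 15192 genes, DESeq2 called 902 as higher and 689 as lower. The median fitted change was -0.63 over the basal and progenitor factors and 0.12 over the luminal factors, beside 0.02 over all genes and -0.99 over the 10 lineage genes.

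Sox5 is a SoxD partner of Sox9 in cartilage, and S100b is a calcium-binding protein of glia and a target of SoxE factors. They were the 2 listed genes called by edgeR as higher in the high-amplified tumours. Sox5 was 513 to 1771 normalized counts against 95.2 to 174, at 3.47 (SE 0.47, adjusted p = 0.0281 by edgeR). S100b was 114 to 1095 against 3.57 to 14.8, at 5.63 (SE 1.05, adjusted p = 0.0433). It was highest in MS1218.2, also the tumour with the highest fibroblast sum, and lowest in MS1166.1. These had the most and the least Sox10, but the orders of both genes differed between the extremes. MS1349.1 had S100b at 4.38 and Sox10 at 2852, whereas MS1163.2 had 209 and 2208. The calls of Sox5, S100b, Bcl11b, Ovol1 and Aldh1a3 were lost without any 1 of MS1210.1, MS1163.1, MS1163.2 and MS1155.3 (adjusted p = 0.0556 to 0.130 by edgeR). They were also lost with parity as a covariate (adjusted p = 0.136 to 0.199 by edgeR). With MS1163.1 and MS1163.2, the tumours of 1 mouse number, summed, Aldh1a3 (adjusted p = 0.0562), Ovol1 (0.0671) and S100b (0.0805) were lost, and Bcl11b and Sox5 were still called (adjusted p = 0.0468 for each). Those of all but Sox5 were lost without MS1213.1, those of all but Bcl11b without MS1349.1, and that of S100b without MS1166.1. The differences of these 5 genes kept their direction in all of these fits. In the histotype comparison Tchh was the only listed gene called by edgeR, at 8.94 (SE 1.05, adjusted p = 0.0164). Its call was lost without MS1218.2 (adjusted p = 0.0560 by edgeR) and without MS1349.1, which leaves 1 ASQC tumour. DESeq2 called more listed genes, among them 2 luminal factors as higher and 1 as lower, beside 301 and 217 of all 15515 genes.

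In the sarcoma the lineage profile was of another kind. On size factors computed over all 9 tumours, Sox10 was 7820 normalized counts in MS1156.1 (5817 reads), above the range of 641 to 6358 in the epithelial tumours and at percentile 99.4 of genes per kilobase. The epithelial factors were nearly absent. Gata3 was 5.38 normalized counts (4 reads, exact Poisson 95% interval 1.09 to 10.2 reads) against 606 to 2848 in the epithelial tumours, a level 113-fold under the lowest of them. Elf5 was 12.1 against 2127 to 9861, Ehf 69.9 against 4045 to 18838, and Elf3 10.8 against 114 to 1520.2.

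Kit was 410.0 normalized counts in the sarcoma against 3996 to 16788, 9.75-fold under the lowest epithelial tumour, and Sox9 was 337 against 568.1 to 4321. Trp63 at 45.7, Foxa1 at 18.8 and Klf4 at 315 lay within the epithelial ranges. In all, 6 of the 10 genes lay below every epithelial tumour, against 20.3% of 14145 genes, and 1 lay above, against 22.2%. A single sarcoma allows no test, and the Poisson interval covers counting error only.

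All 5 Schwann cell markers, which like Sox10 belong to the glial derivatives of the neural crest, were higher in the sarcoma than in every epithelial tumour. Mbp, a myelin protein gene, was 14266 normalized counts against 759 to 1628, and S100b was 3762 against 3.43 to 1039. Of 5 melanocyte markers, another neural crest lineage, Dct (91.4 against 0 to 2.40) and Mitf (924 against 227 to 390.0) were above the epithelial range, Pmel was within it, and Tyrp1, at 1 read, and Mlana, at 0, were within the limit of detection; Dct, Tyrp1 and Mlana were named after their values had been seen. All 9 luminal epithelial markers were below it: Krt8 was 169 against 7578 to 36058, and Epcam, named after its values had been seen, was 51.1 against 6854 to 15094. Zeb2, a mesenchymal factor also used by Schwann cells, was 63602 against 308 to 3141. The fibroblast sum was 588150 against 28635 to 361889 and the mast cell sum 1883 against 39.8 to 487, with 5 of 8 and 7 of 8 markers above every epithelial tumour. The part of these cells in the sarcoma's Sox10 or Kit was not tested.

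**Figure D4:**
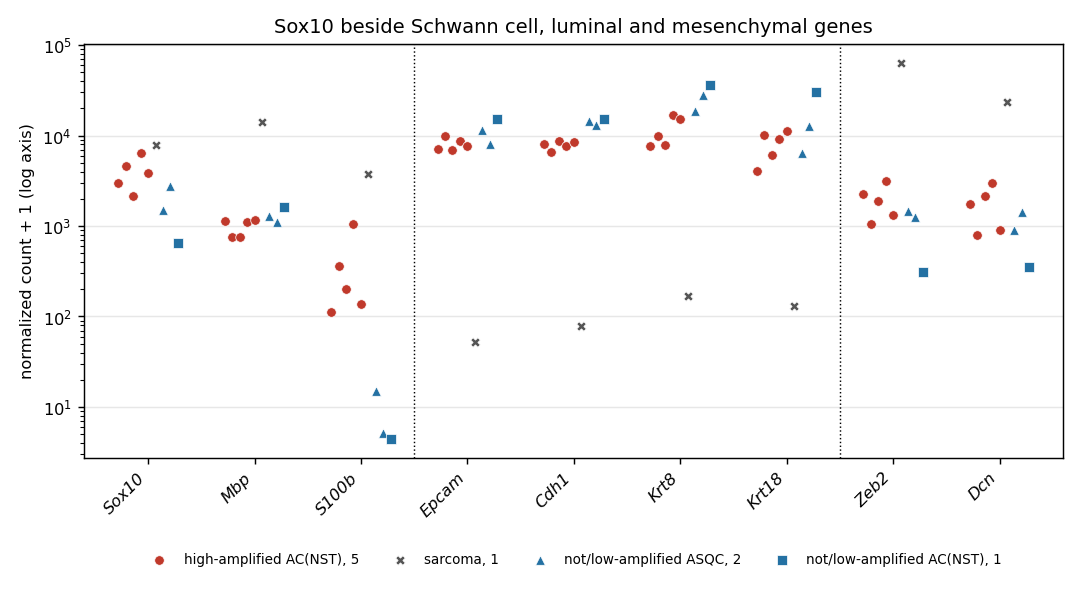
Normalized count + 1 (log axis, size factors over all 9 tumours) of Sox10, 2 Schwann cell markers, 4 luminal genes and 2 mesenchymal genes, with 1 point per tumour. The sarcoma is above all epithelial tumours for Sox10, Mbp and S100b and below them for Epcam, Cdh1, Krt8 and Krt18.

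Tumour by tumour and per kilobase of exon, MS1213.1 and MS1163.2 shared the order Ehf, Kit, Sox10, Elf5, Gata3. MS1213.1 had the highest Gata3 of all tumours and the lowest Klf4, and MS1163.2 the lowest Elf3. MS1163.1, with the same mouse number as MS1163.2, was instead led by Sox10, at 1565 normalized counts per kilobase, ahead of Ehf at 1168. MS1218.2 was led by Sox10 at 2196 per kilobase, with the lowest Ehf and Elf5 of the epithelial tumours and 4 of 10 genes more than 2-fold under the median tumour, in the library with the highest stromal sums. MS1155.3 was led by Ehf and Kit, with the highest Kit of all and Trp63 at 743 normalized counts, more than 3-fold above any other high-amplified tumour.

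The 3 not/low-amplified epithelial tumours each had a profile of their own. The ASQC MS1210.1 was led by Ehf at 3523 per kilobase with Klf4 second at 1052, and had the lowest Gata3. The ASQC MS1349.1 was led by Elf5 at 1746 per kilobase, with the highest Trp63, Elf5 and Foxa1 and the lowest Kit and Sox9 of the epithelial tumours, and Ehf behind Sox10. The AC(NST) MS1166.1 was led by Ehf, Kit and then Sox9 at 1086 per kilobase, and had the highest Sox9 and Elf3 and the lowest Sox10 and Trp63. In the sarcoma Sox10, at 2563 per kilobase on the scale of 9 tumours, was followed by Klf4 at 103.

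**Figure D5:**
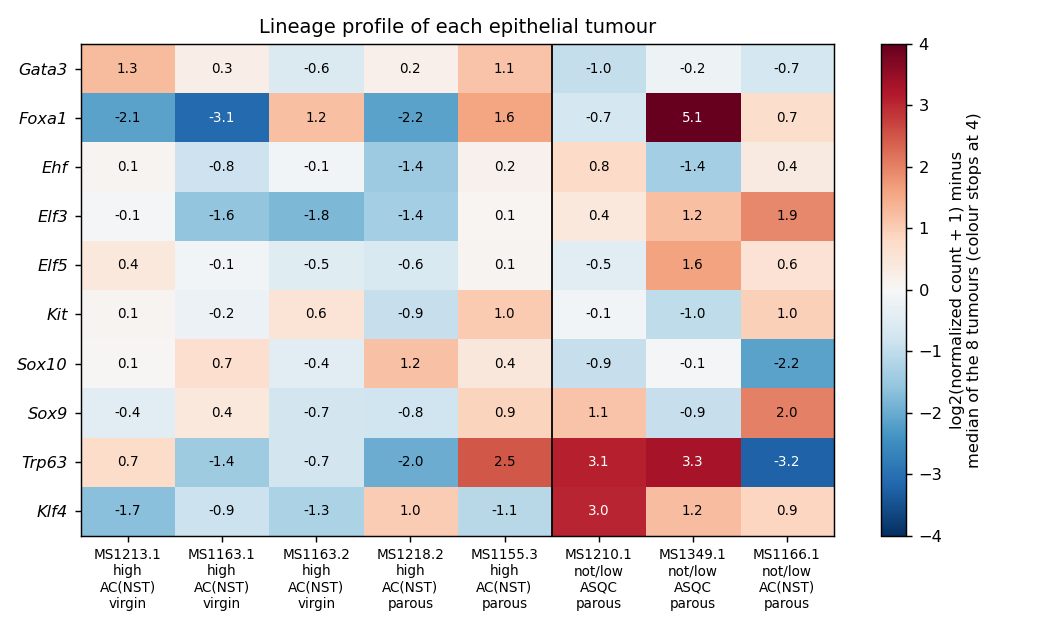
Each cell gives log2(normalized count + 1) of a gene in an epithelial tumour minus the median of the 8 tumours, with red above and blue below the median. Trp63 is 3.1 and 3.3 above the median in the ASQC tumours and 3.2 below it in MS1166.1, and Foxa1 is 5.1 above it in MS1349.1.

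For 9 of the 10 genes, those with a mean of at least 100 normalized counts, the genes with the most alike pattern over the 8 epithelial tumours were sought by the root-mean-square difference of centred log2 values. The nearest to Sox10 was Rilp, which binds lysosomal Rab7, at 0.15, and then Pdgfd, a platelet-derived growth factor, at 0.29. The nearest to Kit were Mtbp (0.18) and Lrrc1 (0.25), to Gata3 Gm19684 (0.28) and Akr1b10 (0.28), to Elf5 Rapgef5 (0.33) and Akap1 (0.39), and to Ehf Acer3 (0.33) and Usp53 (0.36). Elf3 was nearest to Hcar2 (0.36) and Zbtb8a (0.38), Klf4 to Cadm4 (0.48) and E2f2 (0.55), and Sox9 to Slain1 (0.48) and Gm4737 (0.51). The widest gap was that of Trp63, whose nearest genes were Trpv3, a channel of keratinocytes, at 0.59 and the epidermal lipase gene Lipm at 0.61. Among the 9 genes themselves, Ehf and Kit were the most alike, at 0.52. These are the closest of 14007 genes over 8 tumours and carry no test.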

How the data were processed

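The counts deposited by the authors for 9 tumours are reads per gene, which the study's methods describe as aligned with STAR to GRCm38 (at most 3 mismatches, unique positions only) and counted with HTSeq. The library kit keeps strand, the alignment settings were for unstranded data, and the strand option of the counting is not given in the sources used here. For the 8 epithelial tumours the authors also deposited a signal value, the same count over a DESeq2 size factor per tumour. Size factors for the 9 tumours together were computed in the same way. Exon lengths came from GENCODE M21.

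Differences were tested with edgeR 4.0.16 (TMM, glmQLFit and glmQLFTest) in R 4.3.3 without covariates, on genes that reached 10 counts in 3 or more epithelial tumours, and SE is the log2 fold change divided by the square root of F. All 10 members passed this filter. P-values weigh a group difference against the spread between tumours. MS1163.1 and MS1163.2, with 1 mouse number, entered the main fits as separate tumours, so this spread is not one between mice. Alternatives were DESeq2 1.42.0, limma 3.58.1 on log2 values (pseudocounts 1 and 10), other factors, no filter, the 2 tumours with 1 mouse number summed, parity as a covariate, subsets of tumours and each tumour left out. The members and lists were chosen with earlier results of these data known. Named from the lists were the genes called, or otherwise the 3 with the highest mean. Some listed genes are not reported here.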

Additional observations from a re-analysis of the deposited data

How the results depend on the processing

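The number of genes called for amplification was 129. It was 1591 with DESeq2, 229 without a filter, 31 with the 2 tumours of 1 mouse number summed, 210 with limma at a pseudocount of 10, 69 among AC(NST) tumours, 4 with the sarcoma included and 0 with parity as a covariate or in parous mice alone, and 0 to 1248 with 1 tumour left out. Of the 10 genes, DESeq2 called 2 and the fits with 1 tumour left out 0 to 1. For histotype it was 33, with 518 by DESeq2, 171 without a filter, 18 with the tumours summed, 1 in parous mice, 0 among not/low-amplified tumours and 8 to 97 with 1 tumour left out. For parity it was 0, with 511 by DESeq2, which called 1 of the 10 genes, and 0 to 63 with 1 tumour left out. Directions turned for Trp63 (4.05) and Kit (-0.73) for amplification among AC(NST) tumours, for Gata3 (0.21), Sox10 (1.76), Ehf (-0.29) and Elf3 (-1.03) for histotype among not/low-amplified tumours, and for Gata3 (0.25), Elf5 (-0.19), Sox10 (0.70) and Ehf (-0.18) for parity among high-amplified tumours, and for S100b (-1.32) for amplification with the sarcoma included. The cause was not tested. With 1 tumour left out, directions turned for Foxa1 (-4.43 to 0.078) and Kit (-0.22 to 0.76) for amplification, for Elf5 (-0.52 to 1.502), Foxa1 (-1.14 to 4.94), Sox9 (-1.57 to 0.54) and Ehf (-1.24 to 0.92) for histotype, and for Gata3 (-0.86 to 0.21), Elf5 (-0.035 to 0.76), Sox10 (-0.56 to 0.25), Ehf (-0.088 to 0.40) and Kit (-0.24 to 0.28) for parity. The other results kept their direction in every fit, and the sarcoma lay outside the epithelial range for 7 of the 10 genes with either kind of size factor. Where a fit left an arm with 1 tumour, that tumour was assumed to vary like the others.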
